A study of Triticum aestivum with 20 samples.

Results

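The regions described here are stretches of wheat leaf chromatin that were activated before vernalization and carried no mark in the vernalized leaf. They were chosen by their measured states in both conditions. Neighbouring leaf segments in states E1, E2, E6 or E7 were merged into activated runs, and a run was taken when it was at least 1000 bp long, held at least 1 base of E1 or E2, and had every base in state E9 in vernalized leaf. The rule found 7100 such runs, called lost runs below. They were 7.53% of the 94309 leaf activated runs that met the same demands on length and state, called eligible runs, out of 245326 leaf activated runs of any length. The lost runs covered 9.89 Mb of the 322.9 Mb in eligible runs.

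Leaves came from winter wheat (Triticum aestivum) of the cultivar AK58, a hexaploid with the sub-genomes A, B and D. Per the study's methods, leaf was taken from plants grown for 2 weeks after germination in a greenhouse at 22°C by day and 19°C by night without any cold. Vernalized leaf was taken from plants that had 1 month in a cold chamber at 4°C and then 1 day in the greenhouse, so plant age, cold and the return to warmth cannot be told apart. Each of the 2 conditions had 10 libraries from chromatin immunoprecipitation with sequencing (ChIP-seq), made up of 2 replicates for each of 4 histone marks and 2 inputs, but only 1 chromatin state segmentation. Each segmentation assigned a state to every 200 bp bin of the 14066.3 Mb of IWGSC RefSeq v1.0, on 21 chromosomes. With 1 segmentation per condition there was no spread between replicates, and the change between conditions is described without a test. A difference between the conditions in sequencing depth or in peak calling can remove a run as well, and its part in the losses was not tested.

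A chromatin state is a recurring combination of marks and accessibility that a hidden Markov model assigns to each bin. H3K4me3 and H3K27ac are known from the starts of active genes, H3K36me3 lies over the bodies of transcribed genes, and open chromatin marks sites where regulatory proteins can bind. H3K27me3 is laid down by Polycomb complexes over silent genes, and in cereals and Arabidopsis vernalization acts in part through the exchange of such marks at flowering genes. Of the 9 states, read in the order in which they are displayed by the study, E1 combines accessibility with H3K4me3, H3K36me3 and H3K27ac, E2 is marked mainly by H3K36me3, E6 is accessible with some H3K27ac, and E7 is accessible only. E5 is the repressed state with H3K27me3, E3, E4 and E8 are mixed states with both kinds of mark, and E9 is unmodified. The number of a state need not have exactly the same definition in leaf and in vernalized leaf.

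The 95% Wilson interval of the share lost was 7.36% to 7.70%, for counting error only. A run is called kept below when at least 50% of its bases were still activated in vernalized leaf, which held for 74308 runs, or 78.8%. The other 12901 runs, 13.7%, were neither lost nor kept. Of the bases in that last group, 61.3% were E9 in vernalized leaf, 27.5% were activated, 7.73% were mixed and 3.53% were repressed, and 2151 of these runs had no activated base left. The complete losses were thus 1 end of a range of partial ones.

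Lost runs were short and made of E2. Their median length was 1200 bp against 2800 bp for kept runs and 2400 bp for all eligible runs, and their mean was 1393 bp against 3852 bp. Of the 7100 lost runs, 5123 (72.2%) were under 1600 bp and 142 were 3000 bp or longer. Length is tied to the rule, since each further bin also had to be E9. By bases, lost runs were 87.2% E2, 7.14% E7, 3.35% E6 and 2.30% E1. Kept runs were 78.8% E2, 5.10% E7, 3.61% E6 and 12.5% E1. The full set of marks of an active gene start, as in E1, thus took a much smaller share of the bases that were lost than of those that stayed.

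The run of states within the members showed the same. Kept runs are not weighted by length here, and their greater length gives room for more states. E2 alone made up 4919 lost runs, 69.3% of them, and 23.9% of kept runs. E2 followed on 1 side by E7, an H3K36me3 stretch that ends in an accessible site, was found in 906 lost runs (12.8%) and in 4.60% of kept runs. The order E2, E1, E7, in which an E1 stretch lies between them, was found in 136 lost runs (1.92%) and in 12.3% of kept runs. E2 interrupted by E6 made up 182 lost runs and E1 beside E2 made up 114. In all, 116 different orders of states occurred, read without regard to strand. Accessible states were present in 1996 lost runs, of which 1465 had E7 without E6, 226 had E6 without E7 and 305 had both. They covered a median of 400 bp of these runs, and in 1394 of them (69.8%) the accessible state lay at 1 end of the run only. A smaller group of 508 lost runs was mostly accessible by length.

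Read as the share of each kind of leaf run that was lost, the compositions spread over a wide range around the 7.53% of all eligible runs. Of 28773 runs of E2 only, 17.1% were lost, and of 10981 runs of E2 with E6 or E7, 13.5%. Of 20357 runs of E1 and E2, 0.904% were lost, and of 31250 runs of E1 and E2 with E6 or E7, 1.25%. Runs of E1 with E6 or E7 but no E2 lay between, with 129 of 2711 lost (4.76%), and of 237 runs of E1 only, 1 was lost. In all, 704 of 54555 runs with E1 were lost (1.29%) and 90.9% were kept, whereas 6396 of 39754 runs without E1 were lost (16.1%) and 62.1% were kept. Where a lost run did hold E1, there was little of it: 446 of the 704 (63.4%) had a single 200 bp bin, against 28.4% of kept runs with E1, and 22 had 1000 bp or more.

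Runs with E1 were longer than runs without it, so the comparison was repeated at equal length. Among runs of exactly 1000 bp, 2225 of 6831 without E1 were lost (32.6%, interval 31.5 to 33.7) and 201 of 3517 with E1 (5.72%, interval 4.995 to 6.53). At 1400 bp the shares were 21.4% and 2.92%, at 1800 bp 13.1% and 1.98%, and from 3000 bp to under 4000 bp 2.51% and 0.229%. At 6000 bp or more, 3 of 2573 runs without E1 and 1 of 9985 with E1 were lost. The share lost was lower with E1 at each of the 10 lengths, and it went down from each length to the next in both kinds of run. With kept runs weighted to the lengths of the lost runs on each chromosome, 9.90% of lost runs and 53.2% of kept runs held E1, a difference of −43.3 percentage points ± 2.61 (SD over 7 homoeologous chromosome groups) that had the same sign on 21 of 21 chromosomes. Runs with E6 or E7 made up 28.2% of lost and 42.8% of weighted kept runs, a difference of −14.6 percentage points ± 2.64 with the same sign on 21 of 21 chromosomes. The states were read by the rule that chose the runs, so both differences are given as a description. The difference in E6 or E7 did not have 1 direction within compositions. At 1000 bp, 2.98% of runs of E1 and E2 were lost, and 8.87% of those that also held E6 or E7. For E2 only and E2 with E6 or E7 the shares at that length were 32.7% and 32.1%.

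**Figure D1:**
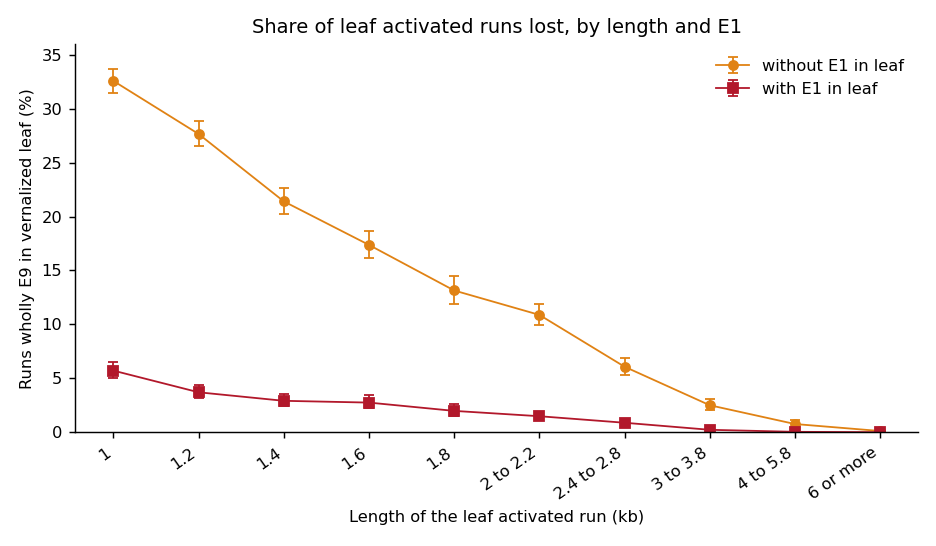
Share of eligible leaf activated runs that were wholly E9 in vernalized leaf (%), by run length (kb), for runs without E1 (circles) and with E1 (squares) in leaf; bars are 95% Wilson intervals, which cover counting error only. The share without E1 goes from 32.6% at 1 kb to 0.117% at 6 kb or more, and with E1 from 5.72% to 0.0100%.

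The threshold of 1000 bp and the demand for E9 in every base both cut through dense parts of the distribution. Just inside, 2426 lost runs, 34.2% of all, had the smallest allowed length. Just outside, 3938 of 11148 leaf activated runs of 800 bp with E1 or E2 (35.3%) were wholly E9 in vernalized leaf. A further 1708 eligible runs missed the rule by a single bin, which was E2 in 890 runs, E7 in 467, E3 in 74, E6 in 67, E1 in 42, E8 in 38, E4 in 2 and E5 in the rest. In 850 of them (49.8%) that bin was the first or the last of the run. Another 3289 eligible runs missed it by 2 bins.

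The longest lost runs show what complete loss looked like. The longest of all lay on 3A from 679936601 to 679946600, 90.6% of the way along the chromosome, and was 10000 bp of uninterrupted E2. In vernalized leaf it lay inside a stretch of 15400 bp of E9 that ended at E7 on 1 side and at E6 on the other, and the nearest kept run was 85600 bp away. On 6B, 7600 bp of E2 from 322043201 to 322050800 had no activated, repressed or mixed base within 10000 bp on either side in leaf, and in vernalized leaf the whole neighbourhood was part of 179000 bp of E9. The nearest kept run, 14000 bp away, was still in place. On D the longest was 6000 bp of E2 on 6D from 262767001 to 262773000. It lay 3400 bp from a kept run, and 33.0% of the bases within 10000 bp were activated in leaf and 34.0% in vernalized leaf. These 3 runs went from long H3K36me3 stretches to no mark, the first between small accessible sites of vernalized leaf, the second in empty surroundings and the third beside an activated region that remained.

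Of the 10 longest lost runs, 4800 bp to 10000 bp, 8 were E2 only, and 2 lay on A, 4 on B and 4 on D. Another run on 2B, with E1, E2 and accessible states and described below, was also 4800 bp long and fell outside the 10 by its position alone. Repressed or mixed states took a large part of the surroundings of 2 of them. The run on 2A from 57916201 to 57922400, 6000 bp of E2 and then 200 bp of E1, ended directly at mixed state E3 in leaf, and 45.0% of the surrounding bases were repressed or mixed. The run on 2D from 610716001 to 610721600, 5600 bp of E2, had 63.0% of its surroundings repressed or mixed and no activated base there in either condition. Both were bounded by E5 on each side in vernalized leaf. The exception in composition was the run on 1D from 357442401 to 357447600, with 200 bp of E7, 400 bp of E2, 4200 bp of E6 and 400 bp of E2. It lay 400 bp from a kept run, and 62.0% of its surroundings were activated in leaf and 58.0% in vernalized leaf. The remaining 4 of the 8 were on 5B from 355601001 to 355606400, on 2D from 347472001 to 347477200, on 2B from 511131801 to 511136800 and on 2B from 196149601 to 196154400.

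**Figure D2:**
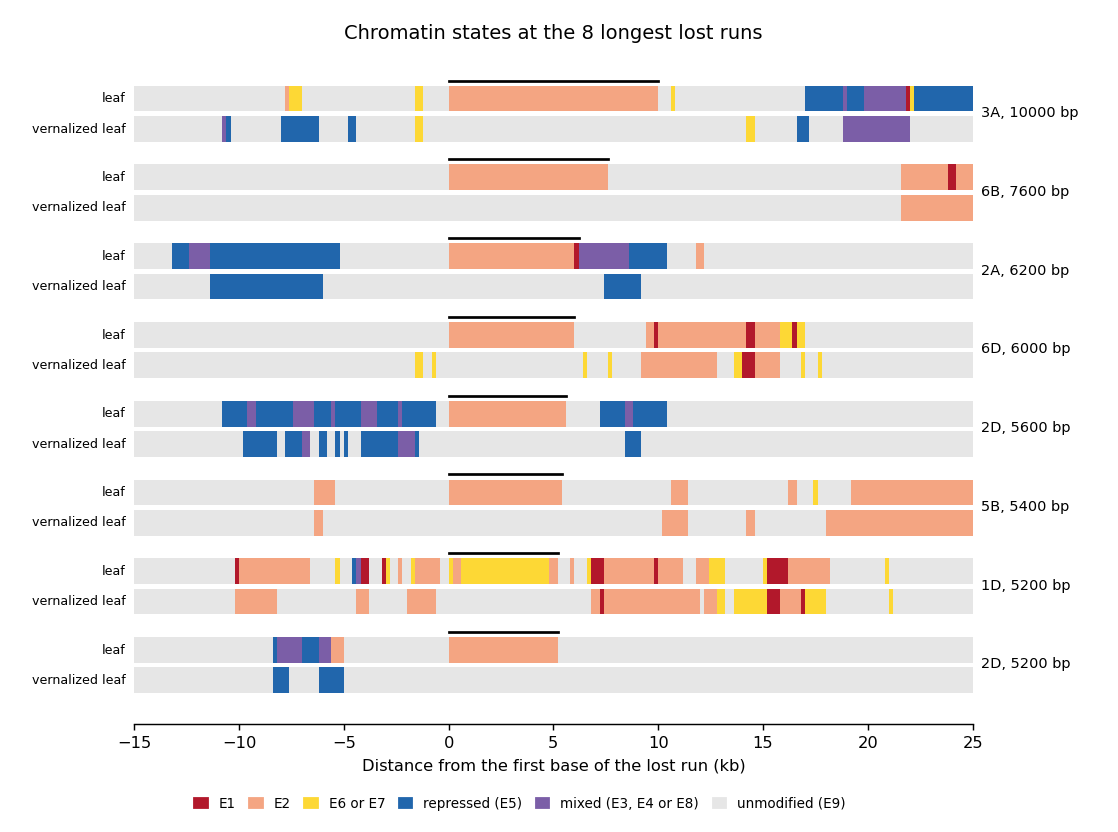
States of leaf (upper bar of each pair) and vernalized leaf (lower bar) around the 8 longest lost runs, against the distance from the first base of the run (kb); black lines mark the lost runs, colours mark E1, E2, E6 or E7, repressed, mixed and unmodified bins. In each pair the marked stretch is grey, unmodified, in the lower bar, and in leaf all but the run on 1D are E2 except for at most 200 bp.

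Lost runs with E1 were less common and of mixed make-up. The one lost run of E1 only lay on 4A from 660451801 to 660452800, 1000 bp long, bounded by E3 on 1 side in leaf and 285400 bp from the nearest kept run. The longest lost run of E1 with accessible states and no E2 lay on 2A from 14969001 to 14973200. Over 4200 bp it read 600 bp of E7, 1200 bp of E6, 200 bp of E1, 1600 bp of E6, 200 bp of E1, 200 bp of E6 and 200 bp of E7. The longest lost run with E1, E2 and accessible states, on 2B from 449119001 to 449123800, read 200 bp of E2, 800 bp of E7, 400 bp of E2, 600 bp of E1, 1200 bp of E6, 400 bp of E2, 200 bp of E6 and 1000 bp of E2. Picked after its values were seen, the lost run with the most E1 lay on 6D from 384438401 to 384441000 and read 400 bp of E7, 1000 bp of E1, 400 bp of E7 and 800 bp of E1. In the runs on 2A and 2B most bases were accessible states or E2, whereas the runs on 4A and 6D were mainly E1, the state with the marks of an active gene start.

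Lost runs were found both beside kept runs and far from them. The median gap from a lost run to the nearest kept run was 19400 bp, with quartiles of 3600 bp and 82450 bp. Within 1000 bp there was a kept run for 704 lost runs (9.92%), within 5000 bp for 2184 (30.8%), and 2432 (34.3%) had none within 50000 bp. Kept runs lay a median of 15600 bp from the next kept run. The smallest possible gap, 1 bin, was found at 131 lost runs, the longest of which was 2600 bp of E2 on 5D from 538110801 to 538113400. The run farthest from any kept run was 1000 bp of E2 on 1B from 187706401 to 187707400, in a sparsely marked part of that chromosome, with 41832000 bp to the nearest kept run and 5260400 bp of E9 around it in vernalized leaf. Lost runs of E2 only lay farther out, with a median gap of 23400 bp, than lost runs with E1, with 10800 bp.

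Since the gap to a kept run reads the outcome, the surroundings were compared in leaf alone. The gap to the nearest eligible run of any fate had a geometric mean of 9689 bp for lost runs and 11488 bp for kept runs weighted to the same lengths. The difference in the mean log10 gap was −0.0741 ± 0.0324 (SD, n = 7 homoeologous groups, exact two-sided sign-flip permutation test, p = 0.0156, adjusted p = 0.0312 over 6 comparisons), lower for lost runs in 7 of 7 groups. The units of this test are chromosomes within 1 pair of segmentations and not plants, and p = 0.0156 is the smallest it can give. It was also taken within compositions, a split added after the values were seen. Within runs of E2 only it was −0.00185 (exact permutation test, adjusted p = 0.906 over 4 comparisons), and within runs with E1 it was −0.331, lower for lost runs in 7 of 7 groups (exact permutation test, adjusted p = 0.0156). The call was lost without weighting by length (−0.0175, exact permutation test, adjusted p = 0.117), and the sign turned to 0.0583 (exact permutation test, adjusted p = 0.0703) when only runs of 2000 bp or more were used.

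The mean over homoeologues covered a difference between sub-genomes. On A the log10 gap was 3.997 for lost and 4.18 for kept runs, a difference of −0.182 ± 0.0619 (SD) that was negative on 7 of 7 chromosomes. On B it was −0.0235 ± 0.0480 and on D −0.0167 ± 0.0309, with 1 and 3 chromosomes positive. Tested after the values were seen, A minus B was −0.159 ± 0.0749 and A minus D −0.165 ± 0.0704, both negative in 7 of 7 groups (exact permutation test, adjusted p = 0.025 over 8 comparisons). Taken over all compositions, lost runs thus lay closer to another eligible run than kept runs did mainly on A. Among runs with E1, sub-genome A had a difference of −0.462, against −0.252 for B and −0.278 for D. It was negative for 7, 6 and 7 of their 7 chromosomes. Among E2-only runs, A had −0.0550, against 0.0319 for B and 0.0175 for D. Sub-genomes were not tested against each other within compositions.

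Most lost runs had no lost run next to them, which is the usual case where 7.53% of eligible runs are lost. How many chains or full windows that share alone would give was not computed. Numbering the eligible runs along each chromosome, 5782 lost runs had no lost run directly before or after them, 1108 came in pairs, 177 in triples, 28 in 7 chains of 4 and 5 in 1 chain of 5. That chain lay on 5B from 54114001 to 54210400, 96400 bp, and its members were 1000, 1200, 1000, 1000 and 3600 bp long, with no E1 in any of them. The chains of 4 included one of 249000 bp on 4A, from 660448401 to 660697400, which holds the E1-only run above. The nearest eligible run was also lost for 728 lost runs (10.3%), for 6.99% of kept runs and for 7.58% of all eligible runs. In windows of 1 Mb, 9072 of 14075 windows (64.5%) held no lost run, 114 held 4 or more, and the fullest, on 2B from 443000001 to 444000000, held 7 lost among 11 eligible runs. Of those 7, 5 were E2 only, 1000 bp to 2000 bp long, and these are runs of H3K36me3 without an accessible site or a gene start mark.

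Repressed and mixed chromatin was somewhat more common beside lost runs than beside kept ones in leaf. In the 10000 bp on each side of a run, repressed or mixed states took 6.32% of bases at lost runs and 5.35% at length-weighted kept runs, a difference of 0.962 percentage points ± 0.776 (SD, n = 7 groups, exact permutation test, adjusted p = 0.0469), higher at lost runs in 6 of 7 groups. This adjusted p too counts the 2 comparisons of state composition among its 6. Their small p values lower it, so the call is made only with them counted. The difference was 1.86 percentage points ± 1.28 on A, 0.364 ± 0.887 on B and 0.662 ± 0.542 on D. Tested over all compositions after the values were seen, A was higher than B by 1.496 percentage points (exact permutation test, adjusted p = 0.025). It was also higher than D, by 1.20 (exact permutation test, adjusted p = 0.0357). Among runs with E1, A had 5.43 ± 4.33, against 2.07 ± 1.78 for B and 0.655 ± 2.80 for D. Among E2-only runs D was highest, with 1.55 ± 1.10, against 1.11 ± 1.17 for A and 0.809 ± 1.09 for B. Over all 3 sub-genomes, the difference within E2-only runs was 1.16 percentage points ± 0.541, higher in 7 of 7 groups (exact permutation test, adjusted p = 0.0312). The call over all compositions was lost without weighting by length (0.631, exact permutation test, adjusted p = 0.131). It was also lost with flanks of 50000 bp (0.424, exact permutation test, adjusted p = 0.15). The same held with 90% of bases E9 (0.943, exact permutation test, adjusted p = 0.0563). With runs of 2000 bp or more the sign turned (−0.633, exact permutation test, adjusted p = 0.188). In counts of runs, 2503 lost runs (35.3%) and 27.6% of kept runs had any repressed or mixed base in these flanks.

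Distance to repressed chromatin was measured for the E2-only runs. Of the 4919 lost runs of E2 only, 479 (9.74%) lay within 1000 bp of H3K27me3 state E5 in leaf, against 6.49% of kept E2-only runs at equal length, and the share was lower among lost runs on 1 of 21 chromosomes. Within 5000 bp it was 22.2% against 15.7%, lower on 2 of 21 chromosomes. The gap to the nearest E1 base hardly differed, with medians of 36800 bp at lost and 37200 bp at kept E2-only runs. At the edge itself, 602 lost runs (8.48%) directly bordered a repressed or mixed bin in leaf, against 4.60% of kept and 6.28% of all eligible runs. Mixed state E4 stood at 2.23% of the ends of lost runs and at 0.705% of those of kept runs, and E5 at 1.62% and 0.736%. No test was made of these shares, and the unweighted ones also reflect the shorter lost runs.

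The amount of activated chromatin around lost runs in leaf depended on the sub-genome and on the length and composition of the runs. Activated states took 12.3% of flanking bases at lost runs and 11.8% at length-weighted kept runs, a difference of 0.450 percentage points ± 0.448 that did not pass (n = 7 groups, exact permutation test, adjusted p = 0.075). Without weighting by length the difference was −0.573 percentage points (exact permutation test, adjusted p = 0.0312), and with runs of 2000 bp or more −1.42 (exact permutation test, adjusted p = 0.0312), both with less activated chromatin at lost runs. The difference was 1.98 percentage points ± 1.03 on A, where 7 of 7 chromosomes had more at lost runs, −0.0462 ± 0.749 on B, and −0.581 ± 0.394 on D, where 7 of 7 had less. A test of A against D, chosen after the values were seen, gave 2.56 percentage points ± 1.17 (n = 7 groups, exact permutation test, adjusted p = 0.025 over 8 comparisons). Within runs of E2 only, activated states took 10.8% of the flank at lost and 11.3% at kept runs, a difference of −0.472 percentage points ± 0.797 that did not pass (exact permutation test, adjusted p = 0.229). Within runs with E1, activated states took 15.7% of the flank at lost and 11.3% at kept runs, a difference of 4.46 percentage points ± 0.986 (n = 7 groups, exact permutation test, adjusted p = 0.0156).

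The flanks were then compared between conditions. A flank can hold other lost runs, whose change the rule fixed, and their part is not given apart. The nearest eligible run was itself lost for 728 lost runs (10.3%). With overlapping flanks counted once, 11.8% of the 137.2 Mb within 10000 bp of lost runs was activated in leaf and 11.1% in vernalized leaf. Of the 16.1 Mb activated there in leaf, 66.7% stayed activated and 31.5% became E9. These shares were not computed for the flanks of kept runs. No activated base lay in the flanks of 1458 lost runs (20.5%) in leaf and of 2059 (29.0%) in vernalized leaf, and 1087 (15.3%) had none in either condition. Of kept runs, not weighted by length, 18.2% had none in leaf, 7.76% in vernalized leaf and 4.65% in either. Between 2000 bp and 3000 bp from the edge, activated states took 15.0% of bases at lost runs in leaf and 13.0% in vernalized leaf, and 14.4% and 15.4% at kept runs. Repressed or mixed states at that distance went from 7.36% to 3.44% at lost runs and from 5.59% to 2.69% at kept runs. This lower amount of repressed and mixed states in vernalized leaf was seen around runs of both fates.

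**Figure D3:**
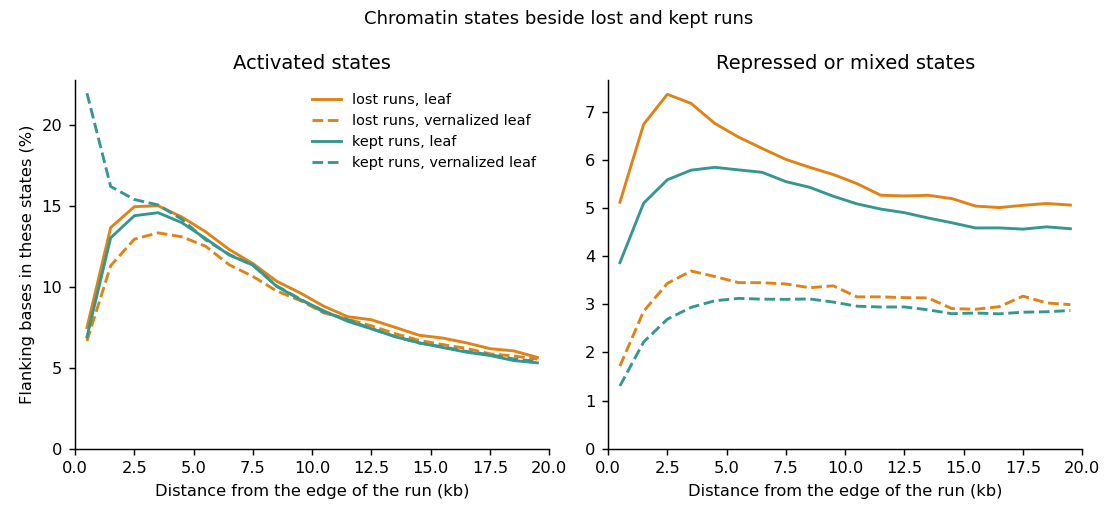
Share of flanking bases in activated states (left) and in repressed or mixed states (right), in %, against the distance from the edge of the run (kb), for lost runs and for kept runs weighted to the same lengths, in leaf (solid) and vernalized leaf (dashed). In the second kb, activated states in vernalized leaf take 11.3% at lost and 16.2% at kept runs, and repressed or mixed states are lower in vernalized leaf at runs of both fates. Fate was read from vernalized leaf, so the difference between fates there is partly set by the choice of runs.

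In vernalized leaf the lost runs lay in gaps of varied size. The nearest base in any other state than E9 was a median of 2000 bp from the edge, with quartiles of 600 bp and 8200 bp. At 495 lost runs (6.97%) such a base followed directly, and at 1623 (22.9%) there was none within 10000 bp. The nearest such state was activated at 5775 lost runs (81.3%), repressed at 1056 (14.9%) and mixed at 267 (3.76%), and 2 had no other state within 1 Mb. Demanding that no activated base lie within 600 bp left 5923 lost runs, 6.28% of eligible runs.

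Both the share lost and the share of runs without E1 varied along the chromosomes. With each chromosome divided into 20 blocks of equal length and all 21 chromosomes pooled, the share of eligible runs lost was 5.65% in the first block, 8.79% in the third, 5.53% in the eighth and 6.75% in the last. Runs without E1 made up 33.0% of eligible runs in the first block, 46.5% in the third, 35.9% in the eighth and 31.4% in the last. Among runs without E1 alone, the share lost went from 13.5% in the seventh block to 18.9% in the eighteenth, and the last block, low among all runs, stood at 18.4%. The first and last 10% of the chromosomes together held 1557 lost runs, 7.03% of the eligible runs there, and the rest held 5543, 7.68%. Of length-weighted runs, 22.2% of lost and 20.9% of kept ones lay in these outer parts, a difference of 1.31 percentage points ± 2.33 that did not pass (n = 7 groups, exact permutation test, adjusted p = 0.203). Within runs of E2 only it was 2.73 percentage points ± 1.68, higher in 7 of 7 groups (exact permutation test, adjusted p = 0.0312), and within runs with E1 it was 4.96 ± 3.22, also higher in 7 of 7 (exact permutation test, adjusted p = 0.0156). Among runs with E1 this lay on A, with 14.2 percentage points ± 4.85 and 7 of 7 chromosomes higher, against 1.10 ± 6.46 on B and −0.396 ± 7.01 on D. The comparison within E2-only runs was added after the values were seen, as was that within runs with E1.

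**Figure D4:**
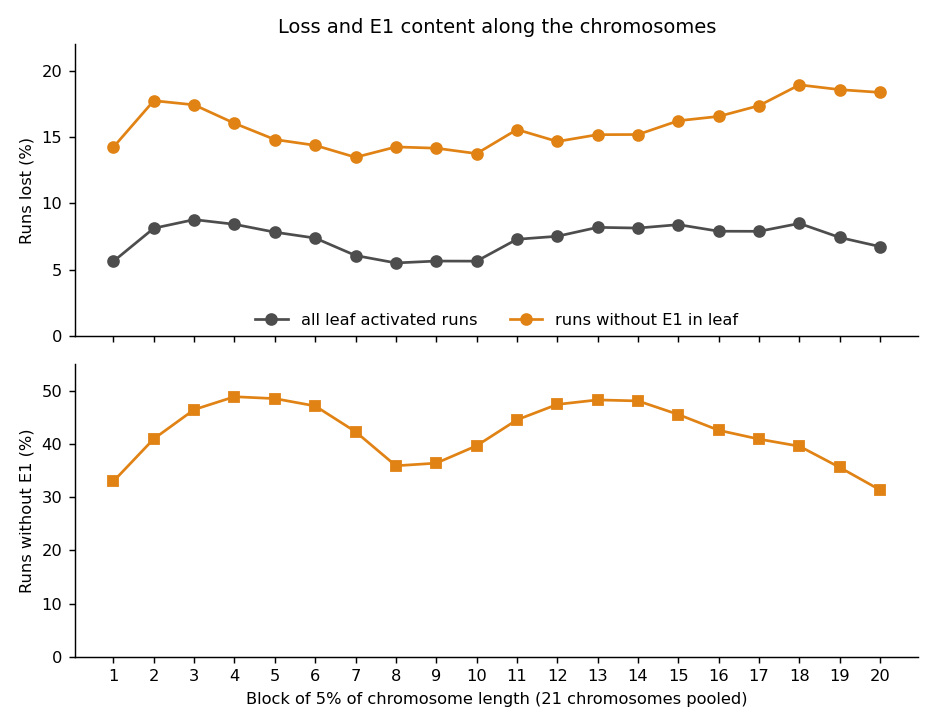
Share of eligible leaf activated runs lost (%) in 20 blocks along the chromosome, for all runs and for runs without E1 (upper panel), and share of eligible runs without E1 in the same blocks (%, lower panel), with the 21 chromosomes pooled. All runs dip to 5.53% in block 8 and to 6.75% in block 20, while runs without E1 stand at 18.4% in block 20.

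Lost runs were spread over all chromosomes and nearly evenly over the sub-genomes. A held 2337, B 2396 and D 2367, which is 0.474, 0.463 and 0.599 per Mb of chromosome. The chromosome with the lowest share lost was 3A, with 297 of 4937 eligible runs (6.02%), and that with the highest was 2B, with 434 of 5167 (8.40%). The mean share over the 7 chromosomes of a sub-genome was 7.17% ± 0.685 (SD) on A, 7.86% ± 0.539 on B and 7.55% ± 0.292 on D. B was highest in 5 of the 7 homoeologous groups and A lowest in 4. The difference of A and B, −0.690 percentage points ± 0.549 with A lower in 6 of 7 groups, did not pass (exact permutation test, p = 0.0312, adjusted p = 0.0938 over 3 comparisons). Neither did the difference of A and D, −0.371 ± 0.787 (exact permutation test, p = 0.281, adjusted p = 0.281), or that of B and D, 0.318 ± 0.737 (exact permutation test, p = 0.266, adjusted p = 0.281).

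The size of the differences between sub-genomes depended on run length. With the share lost standardized to the lengths of all eligible runs, A minus B was −1.38 and A minus D −1.35 percentage points (exact permutation test, adjusted p = 0.0234 for both, n = 7 groups). The figures behind this are that 43.7% of eligible runs on A were under 2000 bp, against 39.8% on B and 38.2% on D, and that of these short runs 14.2% were lost on A, 17.3% on B and 17.2% on D. Of runs of 2000 bp or more, A lost 1.71%, B 1.64% and D 1.61%. Over the 7 groups, neither A minus B nor A minus D passed at these lengths (exact permutation test, adjusted p = 0.727 for both). Short runs on A also held E1 more often, 46.6% against 37.5% and 37.3%. Among runs without E1 alone, a comparison chosen after the values were seen, A minus B was −0.421 and A minus D −0.327 percentage points, next to −0.690 and −0.371 for all runs, and neither difference passed (exact permutation test, adjusted p = 0.844 for both). Standardized to the lengths of the runs without E1, they were −0.661 (exact permutation test, adjusted p = 0.516) and −0.566 (exact permutation test, adjusted p = 0.703), next to −1.38 and −1.35 for all runs.

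The rule was also run with the conditions exchanged, to see how many runs appeared where leaf was unmodified. Such gained runs numbered 3216 of 86843 eligible runs of vernalized leaf, or 3.70%. There were fewer gained than lost runs on 21 of 21 chromosomes, from 0.349 gained per lost run on 4B to 0.556 on 3A. Gained runs were as short as lost ones, with a median of 1200 bp, and 74.3% of them were E2 only. They held E1 still less often, in 1.52% against 9.92% of lost runs. The accessible state differed, since E6 was in 23.2% of gained and 7.48% of lost runs, and E7 in 4.70% and 24.9%. The same shift stood between all eligible runs, of which 13.3% held E6 and 43.2% held E7 in leaf, and 29.2% and 19.3% in vernalized leaf. Lost and gained runs were rarely neighbours: 218 lost runs (3.07%) and 3.50% of kept runs had a gained run within 10000 bp.

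**Figure D5:**
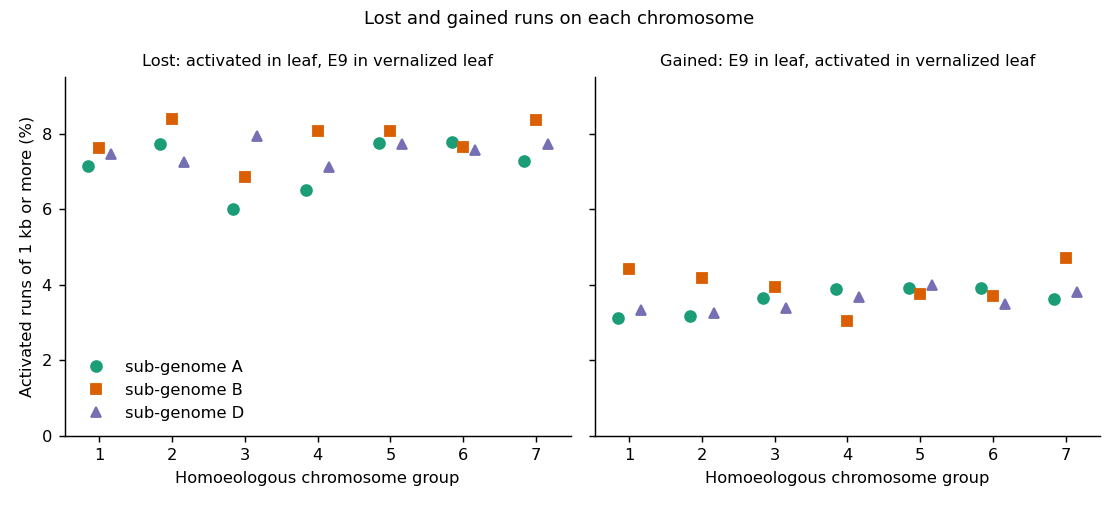
Share of leaf activated runs lost (left) and of vernalized leaf activated runs gained (right), in % of eligible runs, on each of the 21 chromosomes by homoeologous group, with the sub-genomes as symbols. The lost share lies between 6.02% on 3A and 8.40% on 2B and is above the gained share on each chromosome.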

How the data were processed

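Per the study's methods, ChIP-seq reads were cleaned with fastp, and Bowtie placed them on IWGSC RefSeq v1.0. The submitters' processing notes name fastp 0.21.0 and Bowtie2 2.3.5.1. Reads were filtered on mapping quality and duplicates were removed. Peaks of accessibility and of the 4 histone marks then trained a ChromHMM model. How replicates were combined is not stated. The deposited files of the authors give a label from E1 to E9 per segment, with no count or signal, so the precision that depth gives was not computed and read totals were not used here. The meaning of each label follows the order in which the study shows its states, an order that the files cannot check. The records tiled each chromosome without gap or overlap, in multiples of 200 bp, and 0 columns were left without a condition.

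The regions and the lists of comparisons were chosen with earlier results of these data known. Regions named are the 10 longest lost runs, the longest of each sub-genome and composition, the nearest to and farthest from a kept run, the fullest 1 Mb window, and the chromosomes with the highest and lowest share lost. Others are said to be picked after their values were seen.

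Kept runs were weighted to the lengths of the lost runs on the same chromosome in steps of 200 bp, with 3000 bp or more pooled. Differences were averaged over the 3 chromosomes of each of the 7 homoeologous groups and tested by flipping signs in all 128 patterns, an exact two-sided permutation test, with Benjamini-Hochberg adjustment within 3 comparisons of sub-genomes and within 6 comparisons of lost with kept runs, at a threshold of 0.05. The comparisons within compositions were adjusted over 4 and those of lost minus kept between sub-genomes over 8, and both were added after the values were seen. The 2 comparisons of state composition count among the 6 and are given without a p. Their small p values lower the adjusted p of the others, also under alternatives, and no adjustment of the 6 without them was made. The calls for the log10 gap and for the repressed or mixed flank over all compositions are therefore not read as standing without them. Intervals of shares are 95% Wilson intervals. Bins and runs in 1 segmentation are not independent, so these intervals cover counting error only.

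Alternatives were runs of at least 600 bp or 2000 bp, other limits on E9, on the states and on the merging of runs, other flanks, kept runs without weighting or with every base activated, and chromosome groups left out. The functions were tested on simulated segmentations with known runs. Python 3.11.15 with numpy 2.4.6, scipy 1.17.1, pandas 2.3.3 and matplotlib 3.10.9 was used.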

Additional observations from a re-analysis of the deposited data

Results flagged for a closer look

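Taken over all compositions, the difference between lost and kept runs was not the same on the 3 sub-genomes. In a test of 4 leaf measures over the 7 homoeologous groups, chosen after the values were seen, 7 of 8 comparisons of A with B or D passed (exact permutation test, adjusted p = 0.025 or 0.0357). For runs in the first and last 10% of chromosomes, lost minus kept was 4.91 percentage points higher on A than on D. For the log10 gap to the nearest eligible run it was −0.159 against B and −0.165 against D. For activated flank A was higher by 2.02 percentage points than B and by 2.56 than D, and for repressed or mixed flank by 1.496 and 1.20. By composition, A did not stand apart in every measure. For the first and last 10%, E2-only runs gave 1.44 on A, 3.59 on B and 3.16 on D. For repressed or mixed flank they gave 1.11, 0.809 and 1.55. In the other measures of E2-only runs, and in all 4 of runs with E1, A stayed highest, or lowest for the log10 gap. Short eligible runs with E1 were also more numerous on A, and their part in the differences between sub-genomes was not tested.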

How the results depend on the processing

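The number and share of lost runs followed the length limit, with 17762 (15.0%) at 600 bp and 926 (1.65%) at 2000 bp. The share was 7.83% with 90% of bases E9, 9.81% with no activated base in vernalized leaf, 6.28% with no activated base within 600 bp, 7.84% with no E1 or E2 required, 7.28% with runs of E1 and E2 alone, and 7.89% with runs joined over 1 bin of E9.

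Standardized to all lengths, A minus B was −1.38 and A minus D −1.35 (exact permutation test, adjusted p = 0.0234). With runs of 2000 bp or more, A minus B was 0.0802 and A minus D 0.104, and neither passed (exact permutation test, adjusted p = 0.727 for both). With the same runs, lost minus kept turned to −3.07 for runs in the first and last 10% of chromosomes and to 0.0583 for the log10 gap to the nearest eligible run. It turned to −1.42 for activated flank and to −0.633 for repressed or mixed flank. Without weighting by length these 4 were −0.858, −0.0175 (exact permutation test, adjusted p = 0.117), −0.573 and 0.631. With kept runs activated in every base, activated flank was −0.0156. With 90% of bases E9 the repressed or mixed flank was 0.943 (exact permutation test, adjusted p = 0.0563). With flanks of 50000 bp, activated flank was 0.299 (exact permutation test, adjusted p = 0.0469) and repressed or mixed flank 0.424. Within runs of E2 only, chosen after seeing the data, the share in the first and last 10% of chromosomes gave 2.73, the log10 gap −0.00185 and activated flank −0.472. In total 135 values were computed under alternatives.

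With 1 chromosome group left out, the smallest p is 0.0312, so calls were mostly lost by construction. The log10 gap was then between −0.0808 and −0.0673, repressed or mixed flank between 0.801 and 1.18, runs with E1 between −43.9 and −42.7, and runs with E6 or E7 between −15.5 and −14.2. The first 2 kept their call when group 7 was left out. No paired analysis was possible because the libraries have no values of their own in the 2 segmentations. Without the first 240 Mb of 1B there were 7094 lost runs.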

Other observations

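Short activated runs with E1 were more numerous on sub-genome A in both conditions. Among eligible runs under 2000 bp, 6635 on A, 4544 on B and 4467 on D held E1 in leaf, and A had the most in 7 of 7 homoeologous groups. In vernalized leaf the numbers were 4841, 3321 and 3338, again with A first in 7 of 7 groups. The lost runs among them were of like number, 191 on A, 187 on B and 179 on D. This was noticed in the data and was not tested.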
